A study of Mus musculus with 36 samples.

Results

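Naive CD4 T cells of wild-type mice were compared with the Th1 and Th2 cells that such cells become in culture. The members are the 3 WT Th1, 3 WT Th2 and 2 WT naive CD4 libraries among the 36 RNA libraries of the series, chosen by their labels. Genes that differed from naive cells in the same direction in Th1 and Th2 (shared genes) were kept apart from those of a single fate, and X- and Y-linked genes were left out. All of these mice were C57BL/6J, and all cells came from spleen, where beads that bind other cells by their surface markers were used to leave the naive CD4 T cells. Th1 cells are those cells after 6 days of culture on plate-bound antibody to CD3, with soluble antibody against CD28, 10 ng/mL interleukin 12 and 1 ng/mL interleukin 2. The sources used here give neither the culture that made the Th2 cells nor the age of the mice. Naive cells were not polarized in culture, so cultured and naive cells differ in stimulation, time in medium, cytokines and division together. The naive and the cultured libraries also carry different run numbers in their deposited names, so that state and run cannot be told apart in any difference below. The series also holds the same 3 groups from a strain named Ets1-SE-KO (KO here), in libraries that the classes below did not use.

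A naive CD4 T cell is small and rests outside the cell cycle. Transcription factors such as Tcf7, Lef1, Foxo1, Klf2 and Foxp1 maintain that state, together with genes for homing to lymph nodes (Ccr7, S1pr1) and for survival on interleukin 7. Engagement of the T cell receptor with costimulation starts growth, a switch to aerobic glycolysis and repeated division. Cytokines in the medium then direct the dividing cells to the Th1 fate, known for interferon gamma and the factor Tbx21 (T-bet), or to the Th2 fate, known for interleukins 4, 5 and 13 and the factor Gata3.

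The libraries held 8725361 to 10256407 gene counts in Th1, 7311614 to 7590639 in Th2, and 5844738 and 5852673 in naive cells. Mitochondrial genes took 7.40% to 8.2%, 8.05% to 9.78% and 12.6% to 13% of these counts in Th1, Th2 and naive libraries. Reads that met no annotated feature on the counted strand were 16.9% to 18.7%, 18.6% to 21% and 38.2% to 38.4% of those assigned to a single gene or to none. The counts do not give where these reads lay, inside genes or outside them. Their part in the results below was not tested. Replicates of a group share one B number in their titles and differ in a T number. No label ties a T number to an animal or a culture of its own. The p-values therefore rest on a spread between libraries that may be technical. Levels are CPM, gene counts scaled to a common library total with TMM factors, which depend on gene length, so levels are compared between groups and not between genes. CPM are shares of a library and not amounts per cell. A gene said to rise, fall, or be higher or lower does so in that share, and RNA per cell was not measured.

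The labels were checked against marker genes. Tcf7, the transcription factor that marks naive and memory-like T cells, had 71.4, 78.1 and 79.3 CPM in Th1 libraries and 90.2, 106 and 77.2 CPM in Th2 libraries, against 1869 and 1878 CPM in naive libraries. Relative to naive cells its log2 fold changes were -4.62 ± 0.10 (SE) in Th1 and -4.37 ± 0.10 in Th2 (adjusted p = 1.94e-15 and 3.12e-15, edgeR's quasi-likelihood test, Benjamini-Hochberg adjustment). Mki67, the nuclear protein of cycling cells, had 883, 816 and 799 CPM in Th1 libraries and 726, 767 and 659 CPM in Th2 libraries, against 63.96 and 42.6 CPM in naive libraries. Its fitted log2 fold changes against naive were 3.96 ± 0.14 (SE) in Th1 and 3.75 ± 0.13 in Th2 (adjusted p = 1.88e-13 and 3.19e-13), and neither gene's cultured and naive libraries overlapped. Cd4 itself averaged 484 ± 48.03 CPM in Th1 (SD, n = 3) and 579.7 ± 66.5 CPM in Th2 (n = 3), against 706 ± 9.797 CPM in naive cells (n = 2). It was lower in both fates, though its Th2 call ended without either naive library (log2 fold changes of -0.27 and -0.28). Tbx21, the Th1 factor, had 64.8, 55.4 and 51.1 CPM in Th1 libraries and 5.67, 5.12 and 4.88 CPM in Th2 libraries, against 1.06 and 2.12 CPM in naive libraries. Gata3, the Th2 factor, had 140.3, 206 and 94.5 CPM in Th1 libraries and 389.5, 434 and 390.4 CPM in Th2 libraries, against 106 and 93.4 CPM in naive libraries. Each was highest in the fate it is known for. For Gata3 the Th1 libraries overlapped the naive ones: its Th1 log2 fold change of 0.56 passed the threshold, but fell to 0.23 without Th1 replicate 2 (adjusted p = 0.15), and was -2.73 in the untransduced WT Th1 libraries of another experiment and run. Th2 cytokine RNA in the Th1 libraries is given below.

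Markers of other cells were not equal between groups. The 12 myeloid markers summed to 4.90 to 6.57 CPM in Th1, 6.64 to 9.32 in Th2 and 27.5 to 31.5 in naive libraries, and Lyz2, S100a8 and S100a9 had no count in any cultured library. The 9 erythroid and platelet markers summed to 0.556 to 0.755, 0.270 to 1.49 and 27.8 to 34.5 CPM, with the globin genes Hba-a1, Hba-a2, Hbb-bs and Hbb-bt at no count in Th1 and Th2. The 10 B cell markers summed to 49.3 to 81.7, 60.2 to 113 and 262 to 264 CPM, of which Ighm, the immunoglobulin heavy chain, made up 25.9 CPM in Th1, 45.8 in Th2 and 248 in naive cells on average. The B cell list did not fall as a block: of 9 members tested 1 was shared higher and 2 shared lower. In Th2 3 were higher and 2 lower than in naive cells. The median log2 fold changes of the list were -0.30 in Th1 and 0.96 in Th2. The 7 NK cell markers summed to 2.29 to 3.02, 0.406 to 1.89 and 13.4 to 14.1 CPM, and most of that was Eomes, which T cells also express. Cd8a and Cd8b1 together reached 4.53 to 6.68, 5.55 to 8.31 and 17.8 to 18 CPM. The 6 gamma-delta T cell markers summed to 18.8 to 31.8 CPM in Th1, 6.89 to 12.9 in Th2 and 8.46 to 16.7 in naive libraries. Sums of the dendritic cell list (139 to 163, 156 to 173 and 10.0 to 16.4 CPM) were set by Batf3 in Th1 and Th2, and Xcr1 had no count in any library. The regulatory T cell list summed to 3960 to 4350, 3560 to 3940 and 68.7 to 73.5 CPM and was set by Il2ra and Ctla4, which activated T cells also express. The part of these cells in the results was not tested. In bulk RNA, fewer cells of a type and less RNA per cell cannot be told apart.

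Most expressed genes differed from naive cells in both fates, and mostly in the same direction. Of 12878 autosomal genes that passed the filter on low counts, 5160 (40.1%) were higher and 4631 (36.0%) lower in Th1 than in naive cells at an adjusted p under 0.05. In Th2, 5199 (40.4%) were higher and 4672 (36.3%) lower. Shared genes numbered 4622 higher (35.9% of genes tested) and 4208 lower (32.7%). With a difference of at least 2-fold asked of both fates, 2988 (23.2%) and 2647 (20.6%) remained. A gene was assigned to a single fate only where the fates themselves also differed past the threshold. By that rule 243 genes (1.89%) were higher and 167 (1.30%) lower in Th1 alone, and 277 (2.15%) were higher and 207 (1.61%) lower in Th2 alone. Another 50 genes (0.388%) went in opposite directions, 1008 passed in a single fate without a difference between the fates, and 2096 passed in neither.

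The absolute log2 fold change against naive cells had a median of 1.01 in Th1 and 1.03 in Th2 over all genes tested. Between Th1 and Th2 that median was 0.25, and 3201 genes (24.9%) passed the threshold. The shared class does not mean equal levels: 2110 of its 8830 genes (23.9%) also differed between Th1 and Th2. Both comparisons use the same naive libraries, so any error in those 2 libraries enters both. The median signed log2 fold change of all genes was 0.11 in Th1 and 0.09 in Th2, and list medians below are read against it.

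**Figure D1:**
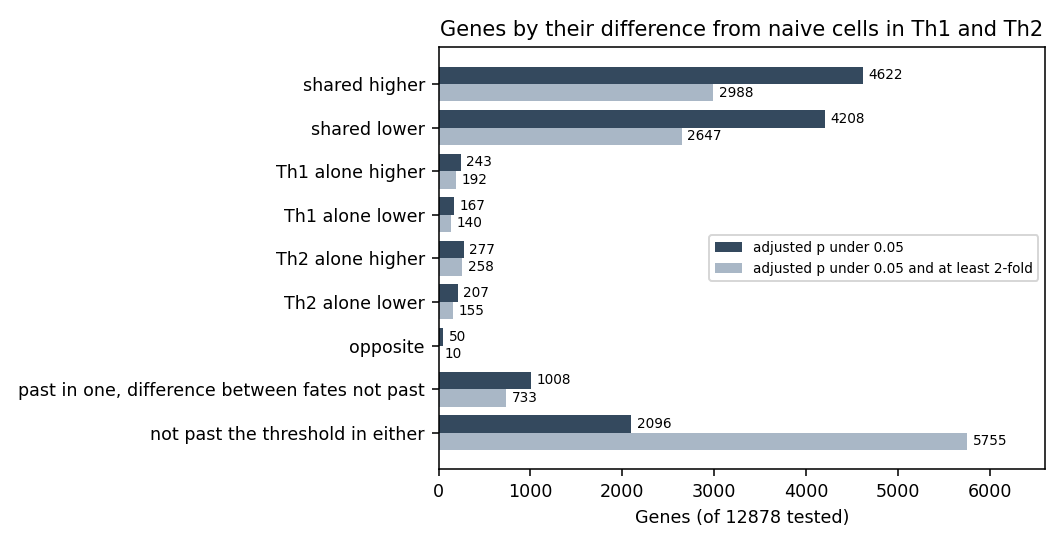
Number of genes in each class, by their difference from naive cells in Th1 and Th2. Dark bars use an adjusted p under 0.05. Light bars ask each call for at least 2-fold as well and sort all genes anew, so they are not subsets of the dark ones: of the 243 genes higher in Th1 alone 78 are among the 192 of the light bar. The 4622 and 4208 shared genes far outnumber the 50 to 277 genes of any other class with a direction.

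The KO libraries share no library with the WT comparison but share its runs, so state and run cannot be told apart in them either. They gave the same shared call for 4137 of the 4596 shared higher genes tested there (90.0%) and for 3703 of 4007 shared lower genes (92.4%). In them 37.6% of 13066 genes were shared higher and 34.4% shared lower. Genes of a single fate kept the direction in that fate in 177 of 241 (73.4%, higher in Th1), 108 of 163 (66.3%, lower in Th1), 226 of 270 (83.7%, higher in Th2) and 150 of 204 cases (73.5%, lower in Th2). These are read against all KO genes, of which at least the shared 37.6% were higher and 34.4% lower in each fate. The whole class assignment, which also asks for no call in the other fate, recurred in 72 (29.9%), 37 (22.7%), 72 (26.7%) and 48 (23.5%) of them, while these classes held 1.35%, 0.773%, 1.35% and 1.02% of the KO genes. Of the 50 genes with opposite directions 9 (18%) were opposite in KO, where that class held 0.168%. The KO strain differs from WT by its knockout, whose part in these shares was not tested.

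Genes of naive homing and quiescence fell in both fates. Of 25 listed genes 23 were shared lower, with a median log2 fold change of -2.26 in Th1 and -2.24 in Th2. Klf2, which drives S1pr1 expression and restrains proliferation, had 2.92, 5.12 and 4.43 CPM in Th1 libraries and 4.996, 7.198 and 2.71 CPM in Th2 libraries, against 844 and 858 CPM in naive libraries. The log2 fold changes against naive cells were -7.67 ± 0.17 (SE) in Th1 and -7.42 ± 0.18 in Th2 (adjusted p = 2.43e-15 and 3.7e-15). Dapl1, Klf3 and the kinase gene Txk fell by similar amounts, and Txk averaged 1.805 ± 0.221 CPM in Th1 (SD, n = 3) and 1.19 ± 1.49 CPM in Th2 (n = 3), against 173 ± 1.26 CPM in naive cells (n = 2). Lef1, Foxo1, Foxp1 and Bach2 fell less, with log2 fold changes of -2.22 ± 0.07 (SE) in Th1 and -1.93 ± 0.07 in Th2 for Lef1 and log2 fold changes of -1.23 ± 0.09 (SE) in Th1 and -1.42 ± 0.09 in Th2 for Bach2. Satb1, a chromatin organiser, fell least in Th1 of the shared members, with 994, 1136 and 1003 CPM in Th1 libraries and 980.3, 1065 and 894 CPM in Th2 libraries, against 1458 and 1485 CPM in naive libraries. With the untransduced Th1 libraries in place of these its Th1 log2 fold change was 0.25. Btla, an inhibitory receptor, was the single member that rose in both, and Myb was higher in Th1 and lower in Th2. The Th1 calls of these 2 genes were marginal: without naive replicate 1, naive replicate 2 or a single Th1 library (replicate 3 for Btla, replicate 1 for Myb) they no longer passed, at log2 fold changes of 0.24 to 0.45.

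Transcription factors of T cell identity outside that list also fell, in 20 of 29 cases, against 6 that rose in both. Tox, a factor of thymic development and of exhausted T cells, had 0, 0.556 and 0.377 CPM in Th1 libraries and 0.405, 0.554 and 0.677 CPM in Th2 libraries, against 69.95 and 81.6 CPM in naive libraries, and no cultured library came near the naive ones. Bcl6, the factor of follicular helper cells, averaged 1.55 ± 0.128 CPM in Th1 (SD, n = 3) and 1.86 ± 0.412 CPM in Th2 (n = 3), against 20 ± 0.871 CPM in naive cells (n = 2). Smad7, Tcf12, Bcl11b, Ikzf1 and Runx1 were lower as well, and Runx1 gave log2 fold changes of -1.91 ± 0.09 (SE) in Th1 and -1.39 ± 0.09 in Th2. The 6 that rose were Stat3, Stat5a, Stat5b, Nfatc2, Gfi1 and Etv6, with log2 fold changes of 2.80 ± 0.09 (SE) in Th1 and 2.94 ± 0.09 in Th2 for Etv6. Without naive replicate 1 the Th2 call of Nfatc2 ended (log2 fold change 0.26).

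RNA for the T cell receptor and its first signalling steps was lower in cultured cells: 19 of 25 genes were shared lower and 2 shared higher (median log2 fold change -0.92 in Th1 and -0.96 in Th2). Trac, the constant region of the receptor alpha chain, had 146, 128 and 154 CPM in Th1 libraries and 117, 110.0 and 125 CPM in Th2 libraries, against 400.5 and 383 CPM in naive libraries. Prkcq, the kinase that links the receptor to NF-kB, had 119, 103 and 107 CPM in Th1 libraries and 85.5, 89.4 and 88.03 CPM in Th2 libraries, against 524 and 517 CPM in naive libraries. Pag1, an adaptor that recruits the inhibitory kinase Csk, fell further, with log2 fold changes of -3.76 ± 0.13 (SE) in Th1 and -3.16 ± 0.13 in Th2. One exception was Themis, with 514, 503 and 570.3 CPM in Th1 libraries and 473, 437 and 505 CPM in Th2 libraries, against 187 and 178 CPM in naive libraries. The other was Zap70, the kinase that docks on the receptor, with 158, 178 and 151 CPM in Th1 libraries and 193, 192 and 211 CPM in Th2 libraries, against 120.0 and 120.0 CPM in naive libraries. In both exceptions all cultured libraries lay above all naive ones.

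Interferon-stimulated genes fell together. Of 20 genes tested from the type I interferon list 16 were shared lower and 3 shared higher, with median log2 fold changes of -2.78 and -4.17. Ifit1, which binds viral RNA, had 0.521, 0.779 and 0.189 CPM in Th1 libraries and 0.135, 0.969 and 0.271 CPM in Th2 libraries, against 55.7 and 53.9 CPM in naive libraries. Irf7, the factor that amplifies the response, had 2.19, 2.78 and 2.08 CPM in Th1 libraries and 3.65, 3.599 and 2.302 CPM in Th2 libraries, against 65.9 and 73.3 CPM in naive libraries. Oasl2, Rtp4, Ifit3 and Rsad2 were near the counting floor in cultured libraries. Stat2, Oas3 and Bst2 were higher in both fates, and Stat2 had 72.04, 76.1 and 61.3 CPM in Th1 libraries and 88.8, 78.3 and 76.7 CPM in Th2 libraries, against 34.01 and 29.1 CPM in naive libraries. Without naive replicate 1 the Th2 call of Bst2 ended (log2 fold change 0.42).

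Immediate early and stress genes, which respond to stimulation and also to cell isolation, were shared lower in 19 of 27 cases and shared higher in 4. Fos had 3.54, 6.01 and 3.96 CPM in Th1 libraries and 7.16, 12.3 and 6.09 CPM in Th2 libraries, against 769 and 761 CPM in naive libraries. Fosb had 0.417, 0.556 and 1.13 CPM in Th1 libraries and 1.08, 1.38 and 0.948 CPM in Th2 libraries, against 251 and 259 CPM in naive libraries. Relative to naive cells its log2 fold changes were -8.44 ± 0.17 (SE) in Th1 and -7.79 ± 0.17 in Th2 (adjusted p = 9.49e-16 and 1.74e-15). Dusp1, the phosphatase that ends MAP kinase signals, averaged 8.98 ± 0.563 CPM in Th1 (SD, n = 3) and 12.6 ± 0.639 CPM in Th2 (n = 3), against 304 ± 1.73 CPM in naive cells (n = 2). The heat shock genes Hspa1a and Hspa1b, near-identical copies whose separate values are uncertain, were lower too. The 4 that rose were Ier3, Atf3, Fosl2 and Hsp90aa1, and Atf3 had 80.6, 68.4 and 88.5 CPM in Th1 libraries and 70.6, 58.97 and 101 CPM in Th2 libraries, against 2.47 and 2.64 CPM in naive libraries. Naive cells were not kept in culture after bead selection, and the part of handling in this list was not tested.

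**Figure D2:**
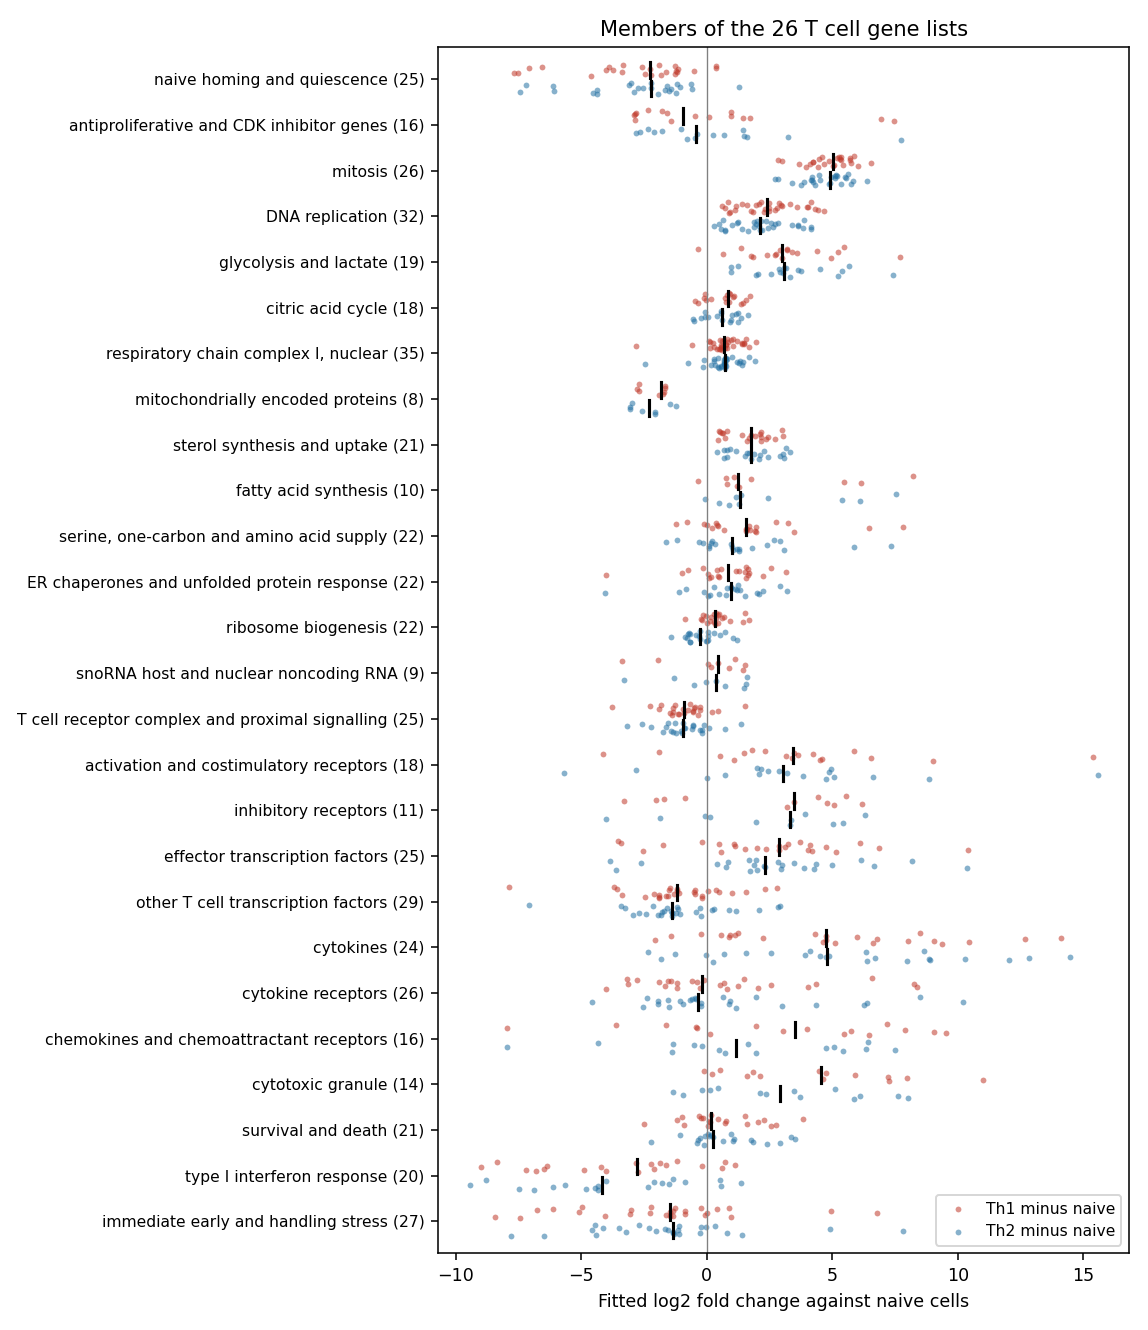
Fitted log2 fold change against naive cells (x axis) of every tested member of the 26 T cell lists, with Th1 above Th2 in each row, black bars at the medians and the number tested in parentheses. Mitosis, glycolysis and sterol genes lie right of 0, naive homing, interferon and mitochondrially encoded genes left of it. Points beyond 12 belong to genes with no count in naive cells, where the fitted value depends on the prior count.

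All 26 tested mitosis genes were higher in both fates, with median log2 fold changes of 5.04 in Th1 and 4.89 in Th2. Top2a, which untangles DNA before chromosomes separate, had 999, 977 and 964 CPM in Th1 libraries and 906, 947 and 863 CPM in Th2 libraries, against 46.5 and 45.1 CPM in naive libraries. Ube2c, the ubiquitin carrier of the anaphase-promoting complex, had 100.4, 95.9 and 99.3 CPM in Th1 libraries and 79.4, 84.4 and 97.6 CPM in Th2 libraries, against 0.881 and 2.82 CPM in naive libraries. Ncapg, a condensin subunit, had 118, 110.0 and 129.6 CPM in Th1 libraries and 95.05, 93.7 and 115 CPM in Th2 libraries, against 1.59 and 2.47 CPM in naive libraries. Ttk, a spindle checkpoint kinase, had 41.7, 39.4 and 34.9 CPM in Th1 libraries and 36.99, 34.7 and 39.95 CPM in Th2 libraries, against 1.23 and 0.881 CPM in naive libraries. Every cultured library lay above every naive one in these genes. None of the 4 genes differed between Th1 and Th2 past the threshold, with Th1 minus Th2 log2 fold changes of 0.05 (Ttk) to 0.24 (Ncapg), though Ncapg passed with a replicate block (0.237), with library totals alone (0.298) and without Th2 replicate 3 (0.335), and Top2a with library totals alone (0.175). With the untransduced Th1 libraries in their place these were -1.76 for Ttk, -1.13 for Top2a, -0.90 for Ube2c and -0.77 for Ncapg, and passed. Among 32 DNA replication genes 31 were shared higher (medians 2.40 and 2.10). Pcna, the sliding clamp, had 152, 151 and 138 CPM in Th1 libraries and 92.9, 115 and 85.5 CPM in Th2 libraries, against 68.4 and 64.7 CPM in naive libraries, and Cdt1, a licensing factor, passed in Th1, with 48.9, 48.6 and 38.5 CPM in Th1 libraries and 36.5, 35.4 and 28.2 CPM in Th2 libraries, against 24.5 and 29.8 CPM in naive libraries. Its Th2 call was gained with a replicate block (log2 fold change 0.405) and in 2 other alternatives, and its call between the fates ended without Th1 replicate 1 (0.383), Th1 replicate 2 (0.389) or Th2 replicate 3 (0.331). Th1 libraries lay above Th2 libraries for Pcna (Th1 minus Th2 log2 fold change 0.58 ± 0.10 SE, adjusted p = 0.000324).

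Promoters of the mitosis genes are shown because the members moved together. Mitotic genes are known for the letters TTTGAA (the cell cycle homology region) near the start of transcription and for CCAAT boxes upstream. Among 20 mitosis genes with a promoter in RefSeq (300 bases, from 250 before to 50 after the start, GRCm38.p6), 15 held TTTGAA and CCAAT on either strand, or 75.0%, against 7.03% of 25748 autosomal promoters and 4.96% of 8890 promoters of tested genes. TTTGAA alone was in 15 of the 20 and in 17.7% of all autosomal promoters, and CCAAT in 18 of the 20 and in 37.8% of all. CCAAT was also in 14 of 25 promoters of the DNA replication list and 17 of 20 of the endoplasmic reticulum list described below. The replication motif GCGGGAA was in 10 of 25 promoters of the DNA replication list, 1 of the 20 mitosis promoters, 4.71% of all and 8.74% of promoters of tested genes. Each motif was counted on its own, whether or not its match overlapped another, and a match describes letters and not a bound factor. The 3 members with the largest smaller change among those holding both motifs are printed 5′ to 3′ on the strand of the gene, with TTTGAA (or TTCAAA) and CCAAT (or ATTGG) in capitals.
Ncapg, chr5:45669675-45669974, plus strand: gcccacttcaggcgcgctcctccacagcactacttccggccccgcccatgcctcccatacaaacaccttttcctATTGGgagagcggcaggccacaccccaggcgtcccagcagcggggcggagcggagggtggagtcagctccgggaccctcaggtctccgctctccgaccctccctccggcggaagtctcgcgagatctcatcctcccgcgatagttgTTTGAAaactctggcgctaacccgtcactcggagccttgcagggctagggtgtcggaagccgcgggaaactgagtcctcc
Ube2c, chr2:164769679-164769978, plus strand: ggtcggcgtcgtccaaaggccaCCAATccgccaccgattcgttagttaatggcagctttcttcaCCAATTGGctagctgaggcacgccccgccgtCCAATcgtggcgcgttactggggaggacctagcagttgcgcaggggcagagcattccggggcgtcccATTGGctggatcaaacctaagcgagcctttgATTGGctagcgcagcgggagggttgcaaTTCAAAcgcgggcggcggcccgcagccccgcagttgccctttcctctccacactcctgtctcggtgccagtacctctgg
Ttk, chr9:83834439-83834738, plus strand: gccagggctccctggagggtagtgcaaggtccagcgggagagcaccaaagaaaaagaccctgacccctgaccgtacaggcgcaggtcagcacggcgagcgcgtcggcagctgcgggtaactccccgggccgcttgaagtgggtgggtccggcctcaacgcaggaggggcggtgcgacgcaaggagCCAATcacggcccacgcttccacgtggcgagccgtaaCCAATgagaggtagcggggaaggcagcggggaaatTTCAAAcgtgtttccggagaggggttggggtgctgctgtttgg
In Ncapg the TTTGAA match begins 30 bases before the annotated start and the CCAAT box 176 before. In Ube2c TTCAAA begins 29 bases before the start, and 6 CCAAT matches on either strand begin 57 to 228 bases before it, of which those at 186 and 183 overlap. In Ttk TTCAAA lies 7 bases past the annotated start, with CCAAT boxes 65 and 28 before it.

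Brakes on the cell cycle did not move as a block. Of 16 tested antiproliferative genes 5 were shared higher and 8 shared lower, where 35.9% and 32.7% of all genes tested were. Cdkn1a, the p21 inhibitor of cyclin-dependent kinases, had 222, 255 and 233 CPM in Th1 libraries and 282, 268 and 303 CPM in Th2 libraries, against 1.41 and 1.23 CPM in naive libraries. Its fitted log2 fold changes against naive were 7.47 ± 0.17 (SE) in Th1 and 7.73 ± 0.17 in Th2 (adjusted p = 2.43e-15 and 1.77e-15), and cultured and naive libraries did not overlap. Cdkn1b, the p27 inhibitor known for holding resting T cells out of cycle, had 68.8, 83.7 and 101 CPM in Th1 libraries and 132, 106 and 153 CPM in Th2 libraries, against 228 and 227 CPM in naive libraries. Btg1, an antiproliferative gene of resting lymphocytes, had 150.3, 167 and 157 CPM in Th1 libraries and 165, 152 and 177 CPM in Th2 libraries, against 1149 and 1177 CPM in naive libraries, and Btg2, Tob1 and Tob2 were also lower in both fates.

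Glycolysis genes rose together: 18 of 19 tested were shared higher, with median log2 fold changes of 3.00 in Th1 and 3.08 in Th2. Hk2, the inducible hexokinase, had 458, 443 and 420.2 CPM in Th1 libraries and 377, 357 and 368 CPM in Th2 libraries, against 1.41 and 2.82 CPM in naive libraries. Slc2a3, a glucose transporter, had 726, 989.8 and 833 CPM in Th1 libraries and 1059, 1059 and 962 CPM in Th2 libraries, against 29.4 and 25.02 CPM in naive libraries. Tpi1, triose phosphate isomerase, had 669.6, 695 and 665 CPM in Th1 libraries and 718, 716 and 804 CPM in Th2 libraries, against 17.97 and 17.6 CPM in naive libraries. In all 3 genes the naive level was a small fraction of every cultured one. The lactate exporter Slc16a3 averaged 205 ± 8.89 CPM in Th1 (SD, n = 3) and 232 ± 5.01 CPM in Th2 (n = 3), against 4.58 ± 0.499 CPM in naive cells (n = 2). Ldhb, the lactate dehydrogenase subunit that favours pyruvate, was the single exception and passed in Th2 alone, with 11.9, 17.5 and 9.81 CPM in Th1 libraries and 30.5, 29.8 and 36.3 CPM in Th2 libraries, against 16.6 and 16.7 CPM in naive libraries. Its Th2 libraries lay above all others, and its Th1 libraries overlapped the naive ones. Without Th1 replicate 2 Ldhb passed as lower in Th1 (log2 fold change -0.62).

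Lipid synthesis rose as well. All 21 sterol genes tested were shared higher (medians 1.78 in both fates), and Lss, lanosterol synthase, had 115, 111 and 109 CPM in Th1 libraries and 111, 118 and 108 CPM in Th2 libraries, against 14.8 and 12.3 CPM in naive libraries. Of 10 fatty acid genes 9 were shared higher, and Elovl5 was lower in Th1 alone, a call between the fates that ended in 5 alternatives, among them without Th1 replicate 2 (Th1 minus Th2 log2 fold change -0.249). Among them are the desaturases: Scd1 had 217, 172 and 178 CPM in Th1 libraries and 188, 174 and 191 CPM in Th2 libraries, against 2.29 and 2.996 CPM in naive libraries. Scd2 had 1561, 1508 and 1388 CPM in Th1 libraries and 1441, 1325 and 1410 CPM in Th2 libraries, against 34.2 and 32.1 CPM in naive libraries. Cultured and naive libraries were far apart in both desaturases. Among 22 genes of serine, one-carbon and amino acid supply 14 were shared higher and 2 shared lower. Asns, asparagine synthetase, had 79.2, 74.2 and 84.2 CPM in Th1 libraries and 49.01, 50.4 and 55.4 CPM in Th2 libraries, against 1.41 and 0.352 CPM in naive libraries. Atf4, the factor that controls it, averaged 179.7 ± 19.9 CPM in Th1 (SD, n = 3) and 166 ± 36.98 CPM in Th2 (n = 3), against 157 ± 13.2 CPM in naive cells (n = 2), and passed in neither fate. Counted without strand, Atf4 passed as higher in Th1 (log2 fold change 0.314). Slc38a2, a glutamine transporter, was among the 2 that fell.

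Mitochondrial genes split by the genome that holds them. Among 35 tested nuclear genes of respiratory complex I 28 were shared higher and 1 shared lower, with modest medians of 0.70 in Th1 and 0.71 in Th2. Ndufc2 had 63.2, 60.3 and 65.1 CPM in Th1 libraries and 61.7, 55.6 and 62.6 CPM in Th2 libraries, against 16.2 and 15.7 CPM in naive libraries, and Ndufb2 was the member that fell, with 1.88, 1.33 and 1.89 CPM in Th1 libraries and 1.35, 2.49 and 2.71 CPM in Th2 libraries, against 11.4 and 12.9 CPM in naive libraries. All 8 tested proteins of the mitochondrial genome were shared lower (medians -1.83 and -2.31). The complex I subunit mt-Nd5 had 416, 328 and 360.0 CPM in Th1 libraries and 266, 317 and 324 CPM in Th2 libraries, against 2511 and 2524 CPM in naive libraries. mt-Nd1 had 427, 350.4 and 357 CPM in Th1 libraries and 299.7, 367 and 351 CPM in Th2 libraries, against 1423 and 1413 CPM in naive libraries. The other 5 (mt-Nd4l, mt-Co2, mt-Co3, mt-Atp6 and mt-Atp8) had no count in any of the 8 libraries. The split therefore rests on the 8 tested genes, and the mitochondrial shares of counts given above hold no reads of these 5. Whether their reads were lost in counting was not tested, so no count is not read as no expression. The nuclear genes of the citric acid cycle were shared higher in 12 and shared lower in 2 of 18 cases, and Cs, citrate synthase, averaged 311 ± 10.98 CPM in Th1 (SD, n = 3) and 284 ± 21.4 CPM in Th2 (n = 3), against 119 ± 4.99 CPM in naive cells (n = 2).

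In the endoplasmic reticulum list 15 of 22 genes were shared higher and 3 shared lower (medians 0.87 and 0.97). Pdia6, a disulfide isomerase, had 307, 288 and 268 CPM in Th1 libraries and 258, 262 and 263 CPM in Th2 libraries, against 61.5 and 60.1 CPM in naive libraries. Canx, the lectin chaperone calnexin, had 1064, 1099 and 1035 CPM in Th1 libraries and 1428, 1317 and 1372 CPM in Th2 libraries, against 343 and 336 CPM in naive libraries, with Th2 above Th1 (Th1 minus Th2 log2 fold change -0.36 ± 0.06 SE, adjusted p = 0.0002). Hspa5, an abundant chaperone of that compartment and a usual readout of the unfolded protein response, did not pass in either fate, with 690.3, 678 and 621 CPM in Th1 libraries and 625, 631 and 658 CPM in Th2 libraries, against 629.5 and 613 CPM in naive libraries. Hspa5 gave log2 fold changes of 0.09 ± 0.07 (SE) in Th1 and 0.04 ± 0.07 in Th2, where Pdia6 gave log2 fold changes of 2.24 ± 0.09 (SE) in Th1 and 2.10 ± 0.09 in Th2. A Th1 call of Hspa5 was gained with counts without strand (log2 fold change 0.214) and with library totals alone (0.182). Dnajb9, its cochaperone, was lower in both, with 6.05, 6.45 and 8.21 CPM in Th1 libraries and 6.08, 6.09 and 7.72 CPM in Th2 libraries, against 109.8 and 113 CPM in naive libraries.

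The response element of such genes, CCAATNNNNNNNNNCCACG, was searched on both strands of the same promoters, since most of the list rose. It was present in 7 of 20 promoters of the list, against 32 of 25748 autosomal promoters (0.124%). Its first 5 letters are also counted as CCAAT. How many of the 7 holders rose was not counted. Among the holders that were shared higher, the 2 with the largest smaller change were Pdia6 and Canx. They are printed 5′ to 3′ with the outer letters of the element in capitals.
Pdia6, chr12:17266339-17266638, plus strand: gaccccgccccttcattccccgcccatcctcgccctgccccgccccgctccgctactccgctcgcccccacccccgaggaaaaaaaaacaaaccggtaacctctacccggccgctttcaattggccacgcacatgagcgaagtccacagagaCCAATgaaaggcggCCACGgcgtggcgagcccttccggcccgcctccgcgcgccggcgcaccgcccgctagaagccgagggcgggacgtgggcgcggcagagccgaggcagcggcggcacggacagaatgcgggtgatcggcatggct
Canx, chr11:50325624-50325923, minus strand: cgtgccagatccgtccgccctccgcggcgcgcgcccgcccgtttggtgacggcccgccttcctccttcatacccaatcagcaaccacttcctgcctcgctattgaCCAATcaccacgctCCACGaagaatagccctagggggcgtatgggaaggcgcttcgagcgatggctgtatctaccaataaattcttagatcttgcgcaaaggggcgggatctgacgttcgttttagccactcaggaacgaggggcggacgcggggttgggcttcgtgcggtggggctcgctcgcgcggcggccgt
The element begins 98 bases before the annotated start in Pdia6 and 145 before in Canx.

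Ribosome biogenesis divided the fates. Of 22 genes 5 were shared higher, 2 shared lower and 2 opposite, 6 passed in Th1 alone and 7 in Th2 alone. Against naive cells 13 were higher and 2 lower in Th1, where 5 were higher and 11 lower in Th2. Nop56, a core protein of box C/D particles, had 152, 129.6 and 113 CPM in Th1 libraries and 63.7, 77.4 and 55.8 CPM in Th2 libraries, against 102 and 106 CPM in naive libraries, so that its Th1 libraries lay above and its Th2 libraries below the naive ones. Its Th1 call ended with DESeq2 (log2 fold change 0.27, adjusted p = 0.078) and without Th1 replicate 1 or either naive library (0.22 to 0.38). Nolc1 had 202, 188 and 144 CPM in Th1 libraries and 91.5, 105 and 74.2 CPM in Th2 libraries, against 149 and 142 CPM in naive libraries, and was lower in Th2. Its Th1 log2 fold change of 0.295 missed the threshold (adjusted p = 0.0628) but passed in 9 alternatives, among them a replicate block (0.422) and counts without strand (0.417), which would make it opposite. Polr1b, a subunit of RNA polymerase I, had 35.5, 34.6 and 27.7 CPM in Th1 libraries and 17.4, 20.5 and 14.1 CPM in Th2 libraries, against 22.7 and 19.7 CPM in naive libraries, and was higher in Th1 alone, though without Th2 replicate 2 its Th2 log2 fold change of -0.43 passed too. Npm1, nucleophosmin, was shared higher, with 1654, 1605 and 1775 CPM in Th1 libraries and 1427, 1367 and 1530 CPM in Th2 libraries, against 621 and 612 CPM in naive libraries. Myc, the factor that drives many of these genes, rose in both fates and more in Th1 (Th1 minus Th2 log2 fold change 0.82 ± 0.08 SE, adjusted p = 1.09e-06), with 326, 294 and 274 CPM in Th1 libraries and 165, 180.5 and 162 CPM in Th2 libraries, against 101 and 105 CPM in naive libraries.

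Among 9 tested snoRNA host and nuclear noncoding genes 3 were shared higher and 2 shared lower, where 35.9% and 32.7% of all genes tested were, so the list did not move as a block. Malat1, an abundant nuclear RNA, had 786, 877 and 924 CPM in Th1 libraries and 783, 1012 and 937 CPM in Th2 libraries, against 8921 and 8727 CPM in naive libraries, and Neat1 fell as well, while the snoRNA host Gas5 averaged 242 ± 36.6 CPM in Th1 (SD, n = 3) and 251 ± 9.597 CPM in Th2 (n = 3), against 89.5 ± 2.75 CPM in naive cells (n = 2).

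Activation and costimulatory receptors rose in 15 of 18 cases and fell in 2 (medians 3.43 and 3.03). Il2ra, the high-affinity subunit of the interleukin 2 receptor, had 4096, 3754 and 3643 CPM in Th1 libraries and 3598, 3565 and 3161 CPM in Th2 libraries, against 6.87 and 7.93 CPM in naive libraries. The log2 fold changes against naive cells were 9.01 ± 0.13 (SE) in Th1 and 8.86 ± 0.13 in Th2 (adjusted p = 2.87e-17 and 3.58e-17). Tnfrsf9, the receptor 4-1BB, had 784, 806 and 919 CPM in Th1 libraries and 872, 782 and 1000 CPM in Th2 libraries, against 9.87 and 8.11 CPM in naive libraries. Cd69, an early activation antigen that also opposes exit from tissue, fell instead, with 16.9, 14.1 and 23.7 CPM in Th1 libraries and 5.54, 7.47 and 5.69 CPM in Th2 libraries, against 318 and 328 CPM in naive libraries. Of 11 inhibitory receptors 7 were shared higher and 2 shared lower. Pdcd1, which encodes PD-1, had 25.6, 20.9 and 26.04 CPM in Th1 libraries and 20.4, 20.6 and 29.1 CPM in Th2 libraries, against 0.705 and 0.705 CPM in naive libraries, and Lag3 averaged 103 ± 17.9 CPM in Th1 (SD, n = 3) and 60.5 ± 10.97 CPM in Th2 (n = 3), against 1.41 ± 0.498 CPM in naive cells (n = 2). Vsir, the receptor VISTA of resting T cells, was lower, with 68.7, 79.5 and 79.6 CPM in Th1 libraries and 88.3, 83.5 and 80.99 CPM in Th2 libraries, against 305 and 307 CPM in naive libraries.

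Effector transcription factors were shared higher in 18 and shared lower in 3 of 25 cases. Batf3 had 137, 131 and 149.7 CPM in Th1 libraries and 143, 125 and 142 CPM in Th2 libraries, against 0 and 0.176 CPM in naive libraries. Bhlhe40, which promotes cytokine production, had 1058, 1000 and 1027 CPM in Th1 libraries and 847, 677 and 1120 CPM in Th2 libraries, against 9.69 and 7.75 CPM in naive libraries. Pparg, a nuclear receptor of Th2 cells, had 13.4, 12.2 and 14.2 CPM in Th1 libraries and 55.8, 56.6 and 55.3 CPM in Th2 libraries, against 0.176 and 0.176 CPM in naive libraries. All 3 were near 0 or low in naive libraries, and Pparg was higher in Th2 than Th1 (Th1 minus Th2 log2 fold change -2.06 ± 0.11 SE, adjusted p = 1.21e-09). Eomes, Ikzf3 and Nr4a3 were the 3 that fell, and Nr4a3, a factor induced by the receptor, had 14.7, 14.7 and 18.1 CPM in Th1 libraries and 13.2, 9.83 and 12.9 CPM in Th2 libraries, against 171 and 172 CPM in naive libraries.

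Cytokine genes were shared higher in 18 and shared lower in 2 (Il16 and Ltb) of 24 tested. The fitted medians were 4.75 in Th1 and 4.79 in Th2, and 2.72 and 4.02 with the 7 members that had no naive count set to their bound. Lif had 414, 445 and 395 CPM in Th1 libraries and 454, 482 and 458 CPM in Th2 libraries, against 0.705 and 1.59 CPM in naive libraries. Interleukins of the Th2 fate were also present in Th1 libraries: Il13 had 122, 117 and 65.7 CPM in Th1 libraries and 239, 237 and 250.1 CPM in Th2 libraries, against 0.176 and 0.176 CPM in naive libraries. Il4 had 8.55, 12.9 and 7.74 CPM in Th1 libraries and 19.9, 30.6 and 19.1 CPM in Th2 libraries, against 0.176 and 0.352 CPM in naive libraries. Il5 had 25.5, 32.6 and 10.1 CPM in Th1 libraries and 64.1, 78.3 and 57.4 CPM in Th2 libraries, against no count in naive libraries. For these 3 genes every Th1 library lay below every Th2 library and above the naive ones. Of 26 cytokine receptors 10 were shared higher and 11 shared lower, near the 35.9% and 32.7% of all genes tested. Il12rb2, the inducible subunit of the interleukin 12 receptor, had 554, 541 and 670.0 CPM in Th1 libraries and 133, 106 and 172 CPM in Th2 libraries, against 2.64 and 0.881 CPM in naive libraries. Tgfbr2, which restrains naive cells, fell, with 69.3, 81.5 and 75.95 CPM in Th1 libraries and 97.6, 124 and 81.4 CPM in Th2 libraries, against 502 and 534 CPM in naive libraries.

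Chemokines and their receptors were shared higher in 8 and shared lower in 3 of 16 cases. Ccr4, a receptor of skin- and lung-homing helper cells, had 110.4, 118 and 112 CPM in Th1 libraries and 182, 164 and 173 CPM in Th2 libraries, against 1.76 and 2.47 CPM in naive libraries. Its Th2 libraries were the highest, and all cultured libraries lay above the naive ones. Of 14 tested cytotoxic granule genes 10 were shared higher. Gzmb, granzyme B, had 2448, 2278 and 1815 CPM in Th1 libraries and 256, 391 and 176 CPM in Th2 libraries, against 0.881 and 1.23 CPM in naive libraries. Gzma had 336, 298 and 459.8 CPM in Th1 libraries and 147, 166 and 102 CPM in Th2 libraries, against 1.94 and 2.82 CPM in naive libraries, so both rose in Th2 as well. Th1 levels were higher than Th2 levels for Gzmb (Th1 minus Th2 log2 fold change 2.99 ± 0.20 SE, adjusted p = 1.9e-08) and for Gzma (log2 fold change 1.40 ± 0.16 SE, adjusted p = 6.76e-06). With the untransduced Th1 libraries in place of these Gzma was lower in Th1 than in Th2 (Th1 minus Th2 log2 fold change -2.93). Granzymes C to F are near-identical neighbours, and their separate values are uncertain. Of 21 survival and death genes 9 were shared higher and 3 shared lower, where 35.9% and 32.7% of all genes tested were. Bcl2l1 rose, with 152, 162 and 116 CPM in Th1 libraries and 121, 130.1 and 134 CPM in Th2 libraries, against 26.96 and 22.03 CPM in naive libraries. Bcl2 averaged 291 ± 42.8 CPM in Th1 (SD, n = 3) and 266 ± 12.9 CPM in Th2 (n = 3), against 285 ± 4.63 CPM in naive cells (n = 2), and passed in neither fate.

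Among the 10 shared higher genes with the largest smaller change, 9 are described here: Tnfrsf8, Il24, Penk, Cyp11a1, Mcf2l, Il21, Tubb6, Nek6 and Vldlr. None had a count in the 2 naive libraries, so each fold is a bound against 3 counts over both. Of all 4622 shared higher genes 366 had no naive count. Tnfrsf8 (CD30, chr4:145267137-145315164 in GRCm38), a costimulatory receptor of activated lymphocytes, had 708, 722 and 596 CPM in Th1 libraries and 819, 764 and 750.1 CPM in Th2 libraries, against no count in naive libraries, at least 2700-fold higher in Th1 and at least 2998-fold higher in Th2. Il24, a cytokine of the interleukin 10 family, had 267, 256 and 328 CPM in Th1 libraries and 335, 312 and 437 CPM in Th2 libraries, against no count in naive libraries, at least 1150-fold and 1394-fold higher. Penk, the precursor of enkephalin peptides, had 278, 183 and 238 CPM in Th1 libraries and 153, 119.9 and 176 CPM in Th2 libraries, against no count in naive libraries, at least 941-fold and 577-fold higher. Cyp11a1 makes pregnenolone, the first step of steroid synthesis, and had 102, 133 and 81.99 CPM in Th1 libraries and 166, 199 and 130.0 CPM in Th2 libraries, against no count in naive libraries. Il21, a cytokine for B cell help, had 83.2, 99.9 and 126 CPM in Th1 libraries and 104, 126 and 119 CPM in Th2 libraries, against no count in naive libraries. Bounds for the other members, Mcf2l, Tubb6, Nek6 and Vldlr, ran from 267 (Vldlr) to 424 (Mcf2l) in Th1 and from 297 (Nek6) to 460 (Mcf2l) in Th2. Among the 9 genes 4 also differed between the fates. Penk was higher in Th1 (Th1 minus Th2 log2 fold change 0.64 ± 0.14 SE, adjusted p = 0.00335), and Il24 (log2 fold change -0.35 ± 0.12 SE, adjusted p = 0.0381), Cyp11a1 (log2 fold change -0.64 ± 0.16 SE, adjusted p = 0.00704) and Vldlr (log2 fold change -0.50 ± 0.14 SE, adjusted p = 0.0191) were higher in Th2. The calls of Il24 and Vldlr ended in 7 and 3 alternatives, among them without Th1 replicate 1 (log2 fold changes -0.305 and -0.346) and without Th2 replicate 3 (-0.188 and -0.369), and that of Cyp11a1 with DESeq2 (-0.655). Tnfrsf8 passed with a replicate block (-0.208) and in 3 other alternatives. In KO naive libraries the 9 genes stayed between 0 and 1.07 CPM. The untransduced WT Th1 libraries of another experiment held less Vldlr (5.58 to 6.47 CPM), Mcf2l (17.9 to 19.6) and Cyp11a1 (23.7 to 23.8) than the Th1 libraries here. The same held for Tubb6 (28.2 to 32) and Tnfrsf8 (262 to 282). They held more Il21 (201 to 255) and Nek6 (83.35 to 98.4), and overlapped for Il24 and Penk.

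**Figure D3:**
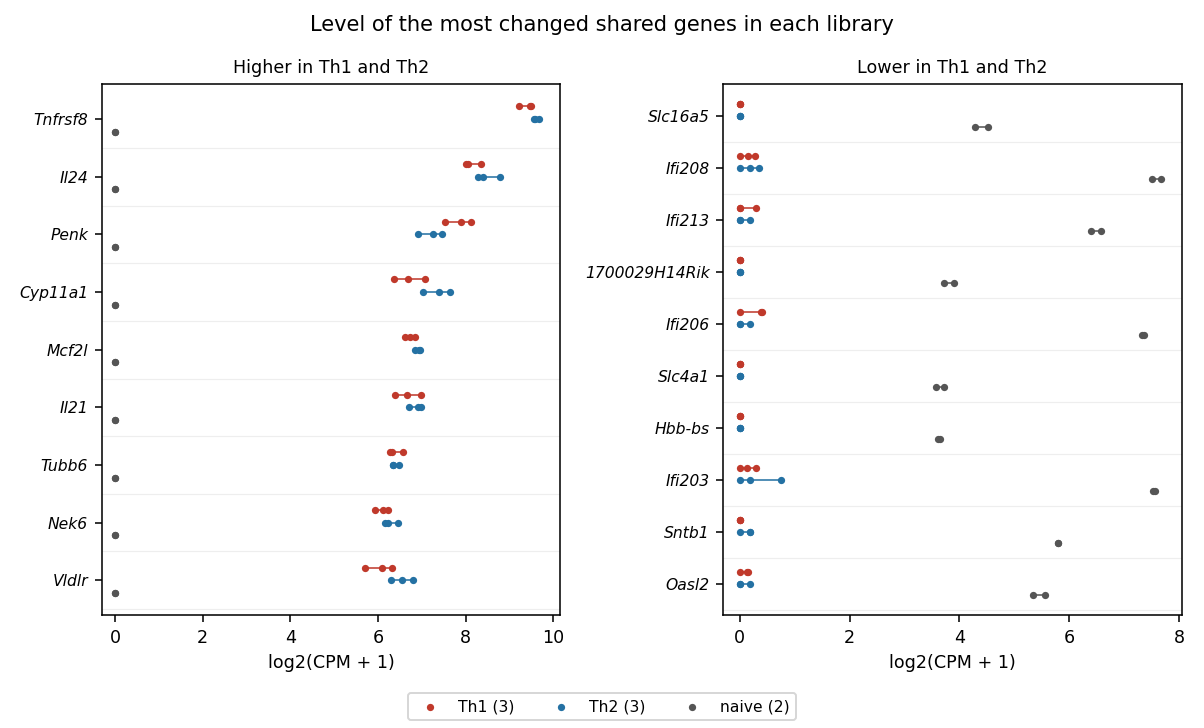
Level of 9 shared higher and 10 shared lower genes with the largest smaller change, as log2(CPM + 1) on the x axis. Each point is a library, with Th1 above Th2 above naive in each row. Naive libraries sit at 0 for all 9 higher genes, and no cultured library exceeds 1 CPM for the 10 lower genes.

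The 10 shared lower genes of the same rule were Slc16a5, Ifi208, Ifi213, 1700029H14Rik, Ifi206, Slc4a1, Hbb-bs, Ifi203, Sntb1 and Oasl2. Slc16a5, a monocarboxylate transporter, had no count in Th1 libraries and no count in Th2 libraries, against 18.5 and 22.03 CPM in naive libraries, at least 185-fold lower in Th1 and at least 146-fold lower in Th2. Sntb1, a syntrophin of the dystrophin complex, had no count in Th1 libraries and 0, 0.138 and 0.135 CPM in Th2 libraries, against 54.3 and 54.5 CPM in naive libraries, at least 497-fold lower in Th1. Slc4a1, the anion exchanger of red blood cells, and Hbb-bs, a beta globin with a near-identical copy, had 12.2 and 10.9 CPM and 11.4 and 11.3 CPM in naive libraries and no count in cultured ones. They stand beside the erythroid markers given above, and the part of residual red cells was not tested.

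Of the other shared lower genes of that rule, 4 lie in a single stretch of chromosome 1, and their family was followed further after these values were seen. The Ifi200 genes encode DNA-binding proteins of the innate immune response and lie side by side with Aim2, the DNA sensor of an inflammasome. Ifi208 (chr1:173673675-173698395) had 0.208, 0.111 and 0 CPM in Th1 libraries and 0.135, 0.277 and 0 CPM in Th2 libraries, against 201 and 181 CPM in naive libraries. Over 3 Th1 counts its level was 1747-fold lower in Th1, with an exact 95% counting interval of 597 to 8478. Ifi206 (chr1:173468485-173491041) had 0.313, 0.334 and 0 CPM in Th1 libraries and 0, 0.138 and 0 CPM in Th2 libraries, against 163 and 159 CPM in naive libraries. Ifi203 (chr1:173920407-173942672) had 0.104, 0.223 and 0 CPM in Th1 libraries and 0.135, 0.692 and 0 CPM in Th2 libraries, against 183 and 188 CPM in naive libraries. Across the 7 tested genes Ifi206, Ifi214, Ifi213, Ifi209, Ifi208, Mndal and Ifi203, naive libraries held 28.2 to 201 CPM and cultured libraries 0 to 0.890 CPM. These 7 passed the filter on low counts through their naive libraries. The other 5 members stayed below the filter. Among them Ifi211 had 0.566 to 0.938 CPM in Th1 (21 counts), no count in Th2 and 0 to 0.176 CPM in naive libraries (1 count), while Ifi202b, Ifi204, Ifi205 and Ifi207 had at most 7 counts in any group. The untransduced WT Th1 libraries of another experiment held 0 to 3.23 CPM of these genes. In KO the naive libraries held 22.8 to 214 CPM of them, and the Th1 and Th2 libraries at most 0.646 CPM. Aim2 itself (chr1:173350879-173466040) was shared higher, with 9.79 to 11.6 CPM in Th1 and 11.1 to 14 CPM in Th2, against 5.46 CPM in both naive libraries. Its log2 fold changes were 0.94 ± 0.21 (SE) in Th1 and 1.21 ± 0.21 in Th2 (adjusted p = 0.000713 and 7.16e-05). Members of the family resemble each other in sequence, so the split of reads between them is uncertain.

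**Figure D4:**
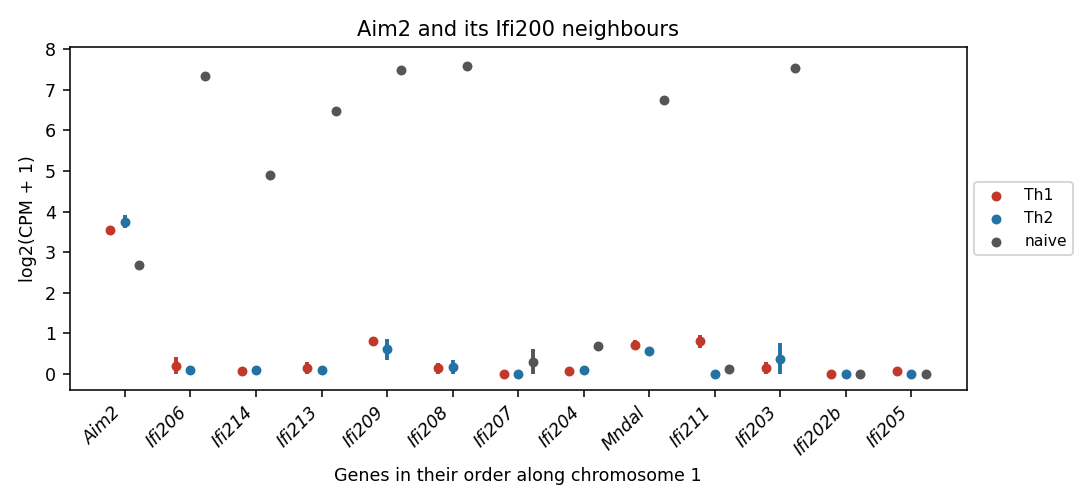
Level of Aim2 and the Ifi200 genes as log2(CPM + 1), in their order along chromosome 1, with Th1, Th2 and naive side by side. Lines span the lowest to the highest library, and points mark the middle of that span. The naive libraries are high in 7 genes where Th1 and Th2 are near 0, and Aim2 shows the opposite order.

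Genes of the Th1 fate alone were led by Ifng, interferon gamma (chr10:118441046-118445892), with 946, 524 and 676 CPM in Th1 libraries and 0.945, 2.35 and 0.542 CPM in Th2 libraries, against 1.59 and 0.529 CPM in naive libraries. Its log2 fold change was 9.38 ± 0.37 (SE) in Th1 (adjusted p = 1.23e-12) and 0.26 ± 0.90 in Th2 (adjusted p = 0.797). Its Th2 libraries overlapped the naive ones. Ccl3, a chemokine of inflammation, had 41.9, 32.2 and 24.1 CPM in Th1 libraries and 0.675, 0.692 and 0.406 CPM in Th2 libraries, against 0.529 and 0.176 CPM in naive libraries. Il23r, a receptor better known from Th17 cells, had 15.8, 8.12 and 20 CPM in Th1 libraries and 0.27, 0.277 and 0.271 CPM in Th2 libraries, against no count in naive libraries, at least 60.3-fold higher in Th1 than in naive cells. A Th2 call of Il23r, which held 6 counts in Th2, was gained without Th1 replicate 2 (fitted log2 fold change 4.14) and with the untransduced Th1 libraries (3.80). Dclk1, Serpinb5 and Serpinb9b had no naive count and averaged 33.3, 20.7 and 11.6 CPM in Th1. Among the 6 genes that fell in Th1 alone, St6gal1, the sialyltransferase that adds alpha-2,6 sialic acid, had 43.3, 69.4 and 51.6 CPM in Th1 libraries and 241, 234 and 227 CPM in Th2 libraries, against 209 and 197 CPM in naive libraries. Filip1l had 13.7, 18.2 and 13.96 CPM in Th1 libraries and 113, 96.3 and 82.3 CPM in Th2 libraries, against 116 and 108 CPM in naive libraries. Gpr83, a receptor enriched in regulatory T cells, had 1.77, 2.67 and 2.45 CPM in Th1 libraries and 16.5, 17.2 and 7.86 CPM in Th2 libraries, against 16.6 and 16.6 CPM in naive libraries. Chn2, Cacnb1 and Fgd6 fell in Th1 as well. Th1 libraries lay below all others in these 6 genes, and naive and Th2 libraries overlapped except for St6gal1. Its Th2 libraries lay above both naive ones, and its Th2 call was gained with counts without strand (log2 fold change 0.414) and in 2 other alternatives.

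In Th2 alone, March10, a ubiquitin ligase gene, had no count in Th1 libraries and 44.01, 37.6 and 30.5 CPM in Th2 libraries, against no count in naive libraries, at least 144-fold higher in Th2 than in naive cells. Ahr, the aryl hydrocarbon receptor, had 5.32, 4.12 and 7.83 CPM in Th1 libraries and 39.8, 25.1 and 72.05 CPM in Th2 libraries, against 4.76 and 3.52 CPM in naive libraries, a spread of 25.1 to 72.1 CPM within Th2. Shtn1 had 1.98, 1.89 and 2.55 CPM in Th1 libraries and 44.96, 34.7 and 56.2 CPM in Th2 libraries, against 0.881 and 2.12 CPM in naive libraries. Nrp2, a semaphorin coreceptor, had 1.88, 1.11 and 0.6605 CPM in Th1 libraries and 16.5, 13.6 and 12.1 CPM in Th2 libraries, against 0.529 and 0.352 CPM in naive libraries, and Plcd4 and Tcaf2 rose in Th2 likewise. With a replicate block Nrp2 passed as higher in Th1 as well (log2 fold change 1.55). Counted without strand, Plcd4 was lower in Th1 than in naive cells (log2 fold change -2.09). Genes that fell in Th2 alone included the death ligand Fasl, with 14.7, 10.01 and 13.7 CPM in Th1 libraries and 2.16, 2.08 and 4.74 CPM in Th2 libraries, against 14.4 and 15.7 CPM in naive libraries, and Il18r1, a receptor subunit for interleukin 18, with 57.03, 31.5 and 65.95 CPM in Th1 libraries and 18.6, 11.2 and 25.7 CPM in Th2 libraries, against 34.9 and 35.8 CPM in naive libraries. The Th1 libraries of Il18r1 passed as higher than naive in 7 alternatives, among them without Th1 replicate 2 (log2 fold change 0.80), and those of St8sia4 in 4 (0.41 without Th1 replicate 2), which would make both opposite. Dgkh, Gbp3, Ctsw and St8sia4 were the other 4, and Gbp3, an interferon-induced GTPase with similar copies, had 36.3, 32.6 and 38.8 CPM in Th1 libraries and 10.3, 7.89 and 11.4 CPM in Th2 libraries, against 37.4 and 31.9 CPM in naive libraries. Th1 and naive libraries overlapped for Fasl, Dgkh, Gbp3, St8sia4 and Il18r1, and not for Ctsw. With the untransduced Th1 libraries in place of these, Fasl was higher in Th1 than in naive cells (log2 fold change 1.00). So were Dgkh (2.15), Ctsw (1.24), Il18r1 (0.836) and St8sia4 (0.705), while Gbp3 did not newly pass.

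Opposite directions were led by Nrgn, Inpp5a, Prf1 and Rxra. Prf1, perforin, had 66.1, 44.5 and 48.9 CPM in Th1 libraries and 7.696, 15.1 and 5.01 CPM in Th2 libraries, against 16.4 and 18.9 CPM in naive libraries. Relative to naive cells its log2 fold changes were 1.59 ± 0.27 (SE) in Th1 and -0.93 ± 0.31 in Th2 (adjusted p = 4.76e-05 and 0.0127). Rxra, the partner of nuclear receptors such as Pparg and Vdr, had 13.2, 13.5 and 9.25 CPM in Th1 libraries and 44.96, 45.3 and 42.9 CPM in Th2 libraries, against 24.3 and 23.3 CPM in naive libraries. Inpp5a, an inositol phosphatase, had 7.92, 9.79 and 9.62 CPM in Th1 libraries and 48.1, 44.6 and 39.7 CPM in Th2 libraries, against 22.02 and 22.7 CPM in naive libraries. In Rxra and Inpp5a the Th2 libraries lay above and the Th1 libraries below both naive libraries. Nrgn had 0.521, 1.001 and 0.566 CPM in Th1 libraries and 19.6, 24.2 and 20.6 CPM in Th2 libraries, against 3.17 and 1.41 CPM in naive libraries. Its Th1 call ended without naive replicate 1 (log2 fold change -1.02, adjusted p = 0.14), and the Th2 call of Prf1 without Th2 replicate 1 (-0.81, adjusted p = 0.053), without naive replicate 2 (-0.81) and with DESeq2 (-0.98). The count of 50 such genes fell to 14 and 16 without naive replicate 1 and 2, and to 33 without Th1 replicate 1.

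**Figure D5:**
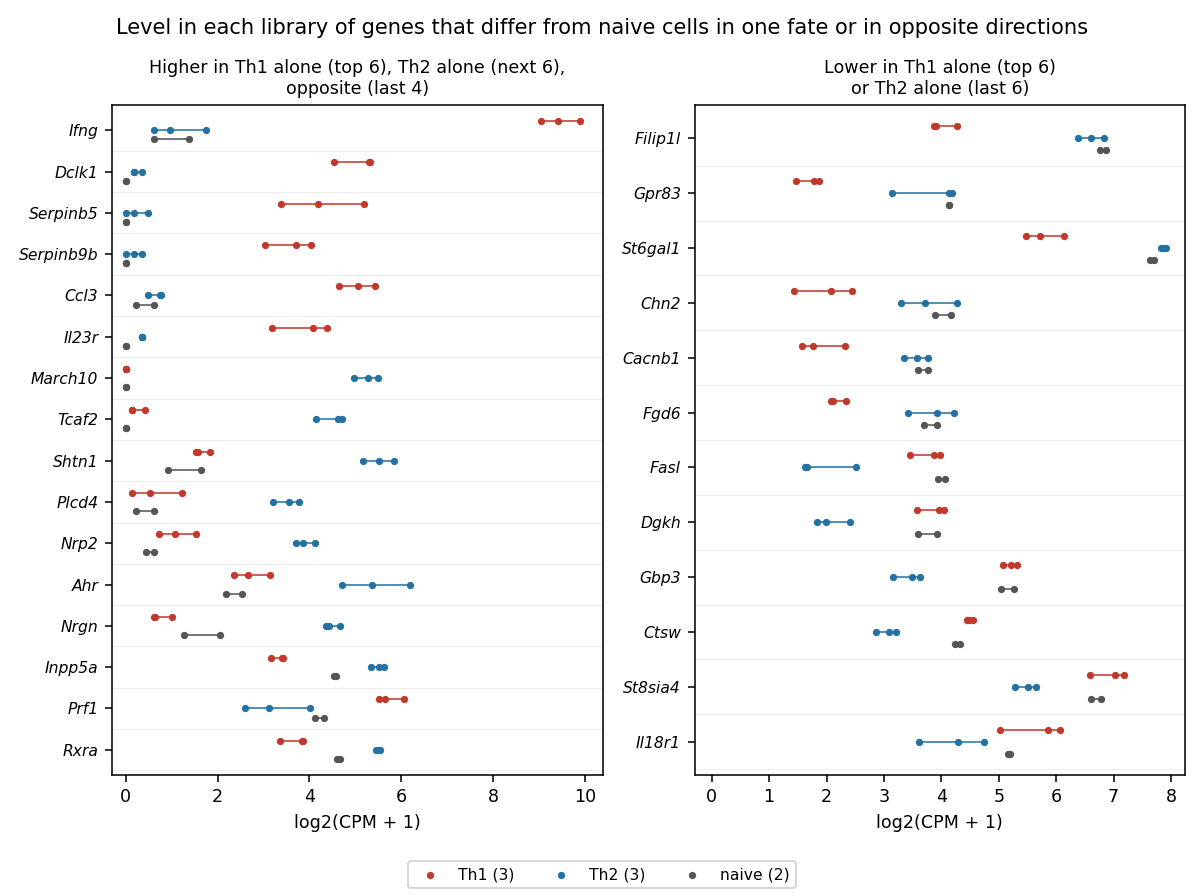
Level of the genes that passed in Th1 alone, in Th2 alone or in opposite directions, as log2(CPM + 1) on the x axis. Each point is a library, with Th1 above Th2 above naive in each row. Naive points lie near those of the fate that did not pass, and for the 4 opposite genes they lie between Th1 and Th2.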

How the data were processed

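Total RNA was sequenced as stranded paired-end libraries with a low-input kit, per the labels' protocols, on a NextSeq 550 or a NovaSeq, without saying which library was run where. Reads were aligned with STAR 2.5.0a to GRCm38, per the submitters' processing notes. The authors deposited a table of read counts per gene for each library, with raw counts unstranded and for each strand; the fourth column, which held 93.3% to 94.7% of strand-assigned reads, was used. Summary lines of unmapped, multimapped and unassigned reads, 67.3% to 72.9% of all entries, were left out. Of 45706 genes 45143 matched the annotation and 4171 on X and Y were left out.

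Computed here were TMM scaling, a filter on low counts (filterByExpr) and edgeR 4.0.16 quasi-likelihood tests (R 4.3.3), with 8 libraries in 1 fit of 3 group means and Benjamini-Hochberg adjustment over all 12878 genes at 0.05. The standard error is the absolute log2 fold change over the square root of F. Replicates were not duplicates of one library: pairs differed by a chi-square per degree of freedom of 1.94 to 7.84. Folds against a group with no count use a floor of 3 counts over the group, and the 95% intervals are exact counting intervals, which like the floors cover counting error only. The tests were checked on simulated counts in which a small part of the genes was changed, in Th1 alone. That setting differs from these data, where most genes differ in both fates, so the check does not cover the scaling here.

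Members and lists were chosen with earlier results of these data known. Named by rule were protein-coding genes of at least 10 CPM in the highest group: the 10 shared genes per direction with the largest smaller change, the 6 per class of a single fate with the largest difference between fates, and the 4 opposite genes with the largest smaller change. Members of the lists serve as examples. A few of these genes are not reported here. Alternatives were DESeq2 1.42.0, other scalings, filters, fits and count columns, another set of Th1 libraries, a 2-fold rule, a replicate block and leaving out each library. Promoter sequences come from RefSeq.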

Additional observations from a re-analysis of the deposited data

Results flagged for a closer look

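The 28 genes named for a single fate or for opposite directions were set apart by the test of the difference between Th1 and Th2 itself (edgeR's quasi-likelihood test, adjusted over all genes), given here as the log2 fold change of Th1 over Th2. Among genes with opposite directions it was -4.93 for Nrgn, -2.27 for Inpp5a, 2.52 for Prf1 and -1.90 for Rxra. Genes higher in Th1 alone had 9.12 (Ifng), 7.40 (Dclk1), 6.72 (Serpinb5), 6.25 (Serpinb9b), 5.75 (Ccl3) and 5.68 (Il23r). Genes lower in Th1 alone had -2.67 (Filip1l), -2.58 (Gpr83), -2.10 (St6gal1), -2.09 (Chn2), -1.98 (Cacnb1) and -1.96 (Fgd6).

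Genes higher in Th2 alone had -11.19 (March10), -6.87 (Tcaf2), -4.38 (Shtn1), -4.05 (Plcd4), -3.53 (Nrp2) and -2.97 (Ahr). The fitted value of March10 depends on the prior count, since Th1 held no count, and its level was at least 348-fold lower in Th1 than in Th2. Genes lower in Th2 alone had 2.09 (Fasl), 2.06 (Dgkh), 1.86 (Gbp3), 1.55 (Ctsw), 1.49 (St8sia4) and 1.48 (Il18r1).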

How the results depend on the processing

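A fold of at least 2 gave 3346 genes higher and 2968 lower in Th1 than in naive cells, 3456 and 2998 in Th2, 814 between Th1 and Th2, 2988 shared higher, 2647 shared lower and 10 opposite. Opposite genes were 33 with DESeq2. With the 2 untransduced WT Th1 libraries, another run, in place of the 3 Th1 libraries, 5880 genes differed between Th1 and Th2, 513 were higher and 401 lower in Th1 alone, 860 and 587 in Th2 alone, and 274 opposite, and the cause was not tested. Of the 8830 shared genes 8622 were tested there and 6825 kept their class. There the Th1 minus Th2 log2 fold change reversed and passed at 1.03 (Il21), -1.40 (Tubb6), 0.73 (Tcf7), 0.65 (Ccr7), 0.98 (Klf3), 1.08 (Btg1), -1.29 (Mki67), -1.12 (Top2a), -0.90 (Ube2c), -1.76 (Ttk), -0.77 (Ncapg), -0.49 (Pdia6), 1.37 (Malat1), 2.48 (Tox), -2.93 (Gzma), 1.76 (Irf7) and 2.32 (Rsad2), and Th1 minus naive at 1.00 (Fasl), 0.25 (Satb1) and -2.73 (Gata3). It changed sign without passing for Lef1 (0.071, adjusted p = 0.559), Cd4 (0.050, adjusted p = 0.733) and Smad7 (0.116, adjusted p = 0.406) between Th1 and Th2, and for Il4 in Th1 against naive cells (-0.974 ± 1.567 SE, adjusted p = 0.595). Counted without strand, Plcd4 reversed to -2.09 in Th1. Leaving out each library gave 4713 to 5198 genes higher and 4250 to 4657 lower in Th1, 4810 to 5180 and 4266 to 4685 in Th2, 2154 to 3134 between the fates, 4160 to 4550 shared higher, 3800 to 4174 shared lower, 165 to 276 and 114 to 173 in Th1 alone, 209 to 341 and 144 to 209 in Th2 alone, and 14 to 65 opposite; a lone naive library is assumed to vary like the others. With a replicate block 4604 genes were shared higher, 4217 shared lower and 66 opposite, and 3842 differed between Th1 and Th2, against 3201 without it. Same-numbered Th1 and Th2 libraries correlated at 0.041, 0.107 and 0.163, each best with its own number, and naive libraries within 0.017 of 0. The labels do not say whether a number pairs a Th1 with a Th2 library. The main fit did not pair them, and the counts with the replicate block are those of a fit that does. With library totals alone the median of all genes was 0.20 in Th1 and 0.12 in Th2, and 4815 genes were shared higher and 4017 lower. Over 176 genes of the naming rule and the lists, the 18 alternatives apart from the 2-fold rule gave 8936 values. Of these 25 reversed direction, where direction was compared only if the main or the alternative value passed. Among the others 8684 stayed on the same side of the threshold, 117 no longer passed and 110 newly passed. Depth limits folds of genes with no count in a group to bounds.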

Other observations

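Annotated gene types differed in how they moved, a description over genes that are not independent. Of 10888 protein-coding genes tested 37.7% were shared higher and 30.7% shared lower. Of 163 lincRNA genes 17.8% were shared higher and 61.3% shared lower, and of 170 antisense genes 9.41% and 65.3%. Of 696 processed pseudogenes 38.1% were shared higher and 10.9% shared lower. Pseudogenes share reads with their parent genes, so their values are uncertain. Reads that met no annotated feature on the counted strand were 16.9% to 18.7% in Th1, 18.6% to 21% in Th2 and 38.2% to 38.4% in naive libraries. Their part in these shares was not tested.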
